A study of Rattus norvegicus with 9 samples.

Results

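The ErbB genes described here are 10 genes of the epidermal growth factor receptor family: the receptors Egfr, Erbb2 and Erbb3, the ligands Nrg1, Areg, Hbegf, Tgfa and Btc, and the inhibitors Errfi1 and Lrig1. Their members on the array were all probe sets that the platform's gene table assigns to 1 of these symbols. That gave 18 probe sets for 10 genes, out of 15866 non-control probe sets for 10411 named genes in all: 8 for Nrg1, 2 for Egfr and 1 for each of the other 8 genes. The family is the one through which heregulin, an agent used in the study, acts, so the level of each transcript is given as well as its change.

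ErbB receptors are membrane tyrosine kinases that pair with each other when a ligand binds, and the pair then switches on the ERK and PI3 kinase cascades. Ligands such as Tgfa, Areg, Hbegf and Btc bind the Egfr protein, while heregulin, a product of the neuregulin gene Nrg1, binds Erbb3 and Erbb4, which often pair with Erbb2, a receptor with no known ligand of its own. Errfi1 (also called Mig6) binds the kinase domain of active receptors and blocks it, and Lrig1 is a membrane protein that binds ErbB receptors and promotes their degradation.

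The study grew isolated ureteric buds, the epithelial outgrowths that branch to form the collecting ducts of the kidney, from Sprague-Dawley rat embryos at embryonic day 13. Buds were cultured for 4 days on a Transwell filter, embedded in a gel of type 1 collagen (50%) and Matrigel of reduced growth factor content (50%). All 3 media held FGF1 at 250 ng/ml and GDNF at 125 ng/ml. The BSN medium also held BSN-CM, medium conditioned by a cell line from the metanephric mesenchyme. The HRG medium held human recombinant heregulin alpha at 500 ng/ml in place of BSN-CM. The PTN medium held pleiotrophin purified from BSN-CM at about 3 µg/ml. Growth is labelled as branching for the BSN samples and as non-branching for the HRG samples, and the labels disagree for PTN. Each sample was the RNA of 3 buds, amplified by 2 rounds of in vitro transcription, and each medium had 3 samples on 3 arrays. The media were compared with each other, and cultures with FGF1 and GDNF alone were not analysed here, so no value below is a change from these factors alone.

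The signals were array intensities on a linear scale. The number of arrays, 3 per medium, limits the precision of every comparison. Pairs of arrays of 1 medium correlated at 0.946 to 0.979 across kept probe sets, and pairs from different media at 0.882 to 0.937. A probe set was kept for testing when its signal was above the 40th percentile of its array on at least 3 of the 9 arrays, and 10106 were. The 40th percentile lay at a signal of 580 to 788, depending on the array. It is a rank and not a detection call, since probe sets differ in how strongly they bind. A log2 change is the difference of mean log2(signal + 16), and a change is said to have passed where limma's Benjamini-Hochberg adjusted p over all kept probe sets was under 0.05. Across all kept probe sets HRG against BSN had 699 higher and 895 lower, HRG against PTN 1423 and 1180, and PTN against BSN 925 and 1351. Centring each array on its median moved every log2 change by 0.1, -0.11 and 0.21 in these comparisons, which turned the counts to 855 and 623, 943 and 1452, and 1598 and 645. Quantile normalization gave 791 and 860, 1210 and 1249, and 990 and 1003.

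Of 14 probe sets for markers of the ureteric bud epithelium 13 were kept, and among them those of Epcam, Krt8 and Krt18 were bright. Others were dimmer, such as that of Gata3, with means of 978 to 1187. Single markers differed between media: HRG against BSN had 1 higher and 5 lower, HRG against PTN 4 and 5, and PTN against BSN 1 and 3. Ret, the GDNF receptor of the bud tip, was at 918 ± 171 in HRG, 13512 ± 1880 in BSN and 18756 ± 850 in PTN (SD, n = 3) for probe set 1370989_at (limma adjusted p = 1.8e-08 and 4.14e-09 for HRG against BSN and PTN). Gfra1 and Lhx1 were also lower in HRG than in both other media, and Krt19 was higher, at 10622 ± 600 against 2925 ± 660 in BSN and 2181 ± 96.3 in PTN. Krt18 was at 16294 ± 4450 in PTN, 28638 ± 1150 in BSN and 30231 ± 2290 in HRG. It was lower in PTN than in BSN and HRG (limma adjusted p = 0.00311 and 0.00117), as were Krt8 and Cdh16. What part these differences have in the changes reported for HRG and PTN was not tested. The summed signal of the epithelial list was 171499 to 183606 in BSN, 161501 to 176657 in HRG and 144613 to 170872 in PTN. Of 10 probe sets for markers of kidney mesenchyme and stroma 3 were kept and none passed in a comparison. The summed signal of all 10 was 3286 to 4144 over the 9 arrays. Of 6 endothelial probe sets 1, for Kdr, was kept. It was lower in HRG, at 329 ± 27.6, than in BSN (742 ± 29.5, limma adjusted p = 0.00792) and PTN (840 ± 229, limma adjusted p = 0.00258), and its part in the HRG results was not tested. The Kdr signal in HRG was below the 40th percentile. The filter thus kept Kdr only through BSN and PTN arrays, which favours a difference from HRG. None of the 5 probe sets for blood cells was kept. Of 11 probe sets for neurons and Schwann cells 5 were kept, with sums of 9741 to 11174 in BSN, 4286 to 5201 in HRG and 7670 to 9888 in PTN. For the actin control, the ratio of 3' to 5' signal, a measure of RNA integrity and labelling, ran from 28.05 to 37.82 in BSN, from 18.56 to 29.59 in HRG and from 15.33 to 18.1 in PTN.

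Among the 6 member probe sets that were kept, 1 each for Egfr, Erbb2, Tgfa, Btc, Errfi1 and Lrig1, the clearest differences set PTN apart from the other media. Egfr signal was lower and Lrig1 signal higher in PTN than in BSN and in HRG. In HRG against BSN 0 of the 6 passed, where 15.8% of all kept probe sets did, and 1 of the 6, for Tgfa, had an unadjusted p under 0.05. In HRG against PTN 2 of the 6 passed, Egfr higher and Lrig1 lower in HRG, against 25.8% of all kept probe sets. In PTN against BSN 2 of the 6 passed, Lrig1 higher and Egfr lower in PTN, against 22.5%. These counts of 0 and 2 among 6 are too small to set the family apart from the rest of the array. The comparisons share arrays, so the last 2 counts rest on the same 3 PTN arrays.

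The stretches around the transcription start of Egfr and Lrig1 are shown because these are the members whose signal passed in a comparison. They are RefSeq sequences of the rat build GRCr8, from 250 bases before the start to 50 bases after it, 5′ to 3′ on the gene's strand. The table held 8 of the 10 members, all but Erbb3 and Nrg1. The Egfr stretch is chr14:95378376-95378675 on the plus strand and the Lrig1 stretch is chr4:128788170-128788469 on the minus strand. Capitals mark matches to GGGCGG, the letters of a GC box, and to CCAAT, each searched on both strands.
Egfr: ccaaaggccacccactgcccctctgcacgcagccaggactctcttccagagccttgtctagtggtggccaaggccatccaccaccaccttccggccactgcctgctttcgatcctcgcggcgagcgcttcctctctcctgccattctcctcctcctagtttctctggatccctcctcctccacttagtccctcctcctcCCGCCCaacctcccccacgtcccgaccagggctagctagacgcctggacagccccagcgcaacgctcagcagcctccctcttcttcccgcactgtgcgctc
Lrig1: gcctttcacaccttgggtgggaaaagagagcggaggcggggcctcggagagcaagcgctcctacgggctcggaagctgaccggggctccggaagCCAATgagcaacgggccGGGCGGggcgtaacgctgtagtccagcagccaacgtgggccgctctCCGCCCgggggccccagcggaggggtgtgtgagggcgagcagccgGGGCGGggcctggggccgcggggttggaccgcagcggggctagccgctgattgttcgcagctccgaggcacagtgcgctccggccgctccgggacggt
The Egfr stretch was 64.3% G and C, and 17.8% of 27457 rat promoters of this length were higher. The Lrig1 stretch was 72.7% G and C, and 5.1% were higher. GGGCGG occurred 1 time in Egfr and 3 times in Lrig1, while 34.9% of all promoters held it at least once and 9.72% held it 3 times or more. CCAAT was found once in Lrig1 and is in 37.7% of all promoters. Neither stretch held TATAAA, TGACGTCA (the CRE letters) or TGANTCA (the AP-1 letters), which 14.3%, 1.91% and 7.33% of promoters hold. Of the other members, TGACGTCA was found in the Areg promoter only. A match is a description of the letters and not a site in use, and the arrays did not measure binding.

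Egfr is the receptor for Tgfa, Areg, Hbegf and Btc. Its kept probe set, 1370830_at, had signals of 873.6, 1045.7 and 853.6 in the BSN arrays 1, 2 and 3, of 1071.2, 788.0 and 851.3 in HRG and of 298.4, 508.0 and 339.2 in PTN. The 3 PTN arrays lay below all 6 others, and the BSN and HRG arrays overlapped. Means were 924 ± 106 (BSN), 904 ± 149 (HRG) and 382 ± 111 (PTN; SD, n = 3). The log2 change was 1.23 ± 0.241 (SE) in HRG against PTN, a 2.35-fold higher signal with a 95% interval of 0.71 to 1.75 on the log2 scale (limma adjusted p = 0.00246). In PTN against BSN Egfr fell by 1.27 on the log2 scale, 2.41-fold (interval -1.79 to -0.75, limma adjusted p = 0.00304). In HRG against BSN the log2 change was -0.04, with an interval of -0.56 to 0.48 (limma adjusted p = 0.944).

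The Egfr probe set passed the filter only through its BSN and HRG arrays. Its signal was above the 40th percentile on all 6 of those and on 0 of the 3 PTN arrays, and how much of the PTN signal came from other transcripts was not tested. A probe set kept in this way had to differ between media, and the folds are those of the measured signals. Both Egfr calls held under all 18 alternatives in which it was tested, with log2 changes of 0.99 to 1.45 and of -1.49 to -1.01. Apart from the fit with no filter, these alternatives used the same filter, so they do not check how the probe set was kept. The second Egfr probe set, 1385413_at, was dim, at signals of 43.0 to 70.4 and at the 5.5th to 8.7th percentile of its arrays. It was not kept and gives no second reading of the change.

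Erbb2 is the shared partner of the other ErbB receptors. Signals were 2305.5, 3168.5 and 2623.3 in BSN, 2873.1, 2541.6 and 2849.9 in HRG and 2008.8, 2517.5 and 3225.8 in PTN. The 3 media overlapped, and PTN held both the lowest and the highest array. Erbb2 was above the 60th percentile on all 9 arrays. The log2 change was 0.04 in HRG against BSN with an interval of -0.35 to 0.43, 0.12 in HRG against PTN (-0.27 to 0.5) and -0.08 in PTN against BSN (-0.46 to 0.31). The limma adjusted p values were 0.921, 0.678 and 0.788. The intervals bound the changes that these arrays could have missed.

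Erbb3, a receptor of heregulin, had a probe set below the 40th percentile on most arrays and at it on 1. Signals were 154.4, 506.7 and 620.4 in BSN, 574.0, 331.8 and 135.2 in HRG and 703.2, 439.3 and 517.1 in PTN. Arrays of 1 medium differed about as much as arrays of different media, and no array lay above the level. Its percentile ran from 14.7 up to the 40th itself, with a median of 32.8. The probe set was not kept, so no change in Erbb3 was measurable here. Erbb4, the other heregulin receptor, had 1 probe set, at signals of 19.3 to 84.0 and above the level on 0 of 9 arrays. Of the receptors of the family, then, Erbb2 alone was above the level on every array, and a low signal does not show that a transcript was absent.

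**Figure D1:**
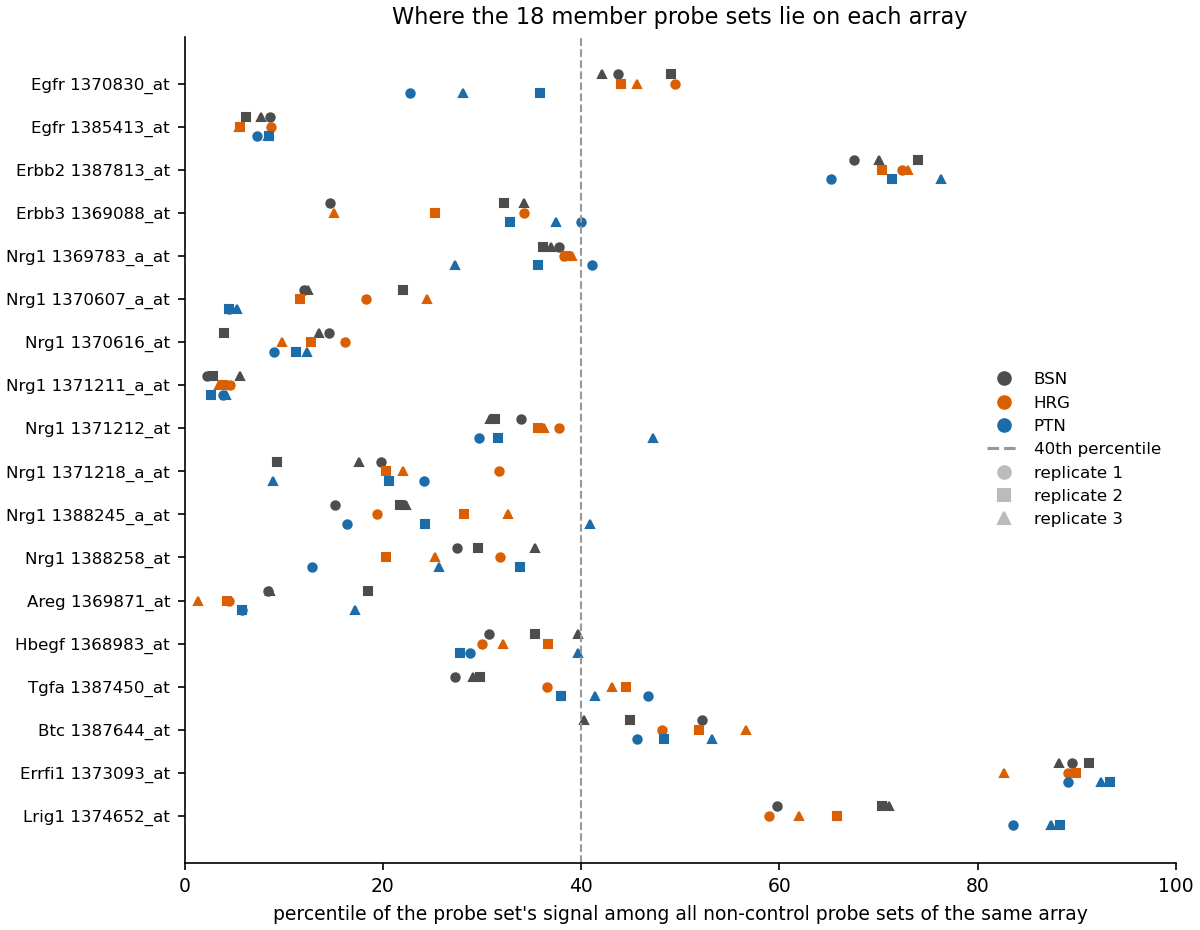
Percentile of each of the 18 member probe sets among all non-control probe sets of its own array (x axis, 0 to 100), with 1 symbol per array, colour for the medium, shape for the replicate number and a dashed line at the 40th percentile. Erbb2, Errfi1, Btc and Lrig1 lie right of the line on all 9 arrays, Egfr 1370830_at only in BSN and HRG, and 8 Nrg1 probe sets lie left of it on nearly every array.

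Nrg1 encodes the neuregulins, heregulin among them. The heregulin in the HRG medium was added as human protein, so it is not itself read by these probe sets, which measure transcripts of the rat buds. The 8 Nrg1 probe sets were designed on 4 source sequences and are therefore not 8 separate readings. Of their 72 array values 3 were above the 40th percentile, 1 each for 1369783_a_at, 1371212_at and 1388245_a_at, and all 3 were on PTN arrays. The brightest on average, 1369783_a_at, was at 669 ± 55.4 (BSN), 652 ± 25.7 (HRG) and 521 ± 206 (PTN; SD, n = 3), and the media overlapped. The dimmest, 1371211_a_at, had means of 27.9 to 34.8.

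One Nrg1 probe set separated the media at low signal. Probe set 1370607_a_at had signals of 110.5, 290.0 and 120.4 in BSN, 198.6, 90.1 and 319.7 in HRG and 38.6, 31.7 and 34.3 in PTN. All 3 PTN arrays lay below the other 6, at the 4.5th to 5.3rd percentile. Of all 15866 non-control probe sets, 31.6% did not overlap in HRG against PTN and 31.4% in PTN against BSN. A separation in 1 of 8 Nrg1 probe sets therefore does not set the gene apart from the array. It was not kept, and in a fit with no filter its limma adjusted p was 0.0144 in HRG against PTN and 0.0271 in PTN against BSN. The signals of the other 7 Nrg1 probe sets overlapped between media in every comparison.

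The remaining ligands bind Egfr, and all are made as membrane proteins that are cut to be released. Areg (amphiregulin) had signals of 69.1, 219.2 and 78.1 in BSN, 37.3, 34.8 and 16.5 in HRG and 46.4, 39.3 and 147.4 in PTN. The HRG arrays were the 3 lowest, at the 1.4th to 4.5th percentile, and did not overlap BSN or PTN. Areg was never above the 18.5th percentile and was not kept, and without the filter the HRG arrays gave a limma adjusted p of 0.0984 against BSN and of 0.28 against PTN. Hbegf, the heparin-binding ligand, had signals of 511.3, 583.2 and 777.3 in BSN, 470.1, 576.1 and 482.8 in HRG and 422.3, 346.4 and 571.1 in PTN. The media overlapped, and all 9 arrays lay below the 40th percentile, the highest at 39.7.

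Tgfa (transforming growth factor alpha) was the member nearest to a difference between HRG and BSN. Signals were 438.1, 449.6 and 498.1 in BSN, 632.6, 804.6 and 761.8 in HRG and 912.5, 558.5 and 613.8 in PTN. Every HRG array and every PTN array lay above every BSN array, and HRG and PTN overlapped. It was above the 40th percentile on 0 BSN arrays, 2 HRG arrays and 2 PTN arrays. The filter thus kept it only through the media in which its signal was higher, which favours a difference from BSN. The log2 change was 0.64 ± 0.242 (SE) in HRG against BSN with an interval of 0.12 to 1.17 (limma unadjusted p = 0.0199, adjusted p = 0.097). It was 0.54 in PTN against BSN, with an interval of 0.02 to 1.07 (limma unadjusted p = 0.0432, adjusted p = 0.125). Neither passed. The HRG change passed under quantile normalization (limma adjusted p = 0.0298), with 3 other settings and without PTN replicate 1 (0.0437), and over all alternatives its adjusted p was 0.0207 to 0.267. The PTN change passed under quantile normalization and median centring (0.0219 and 0.0288), with a range of 0.0219 to 0.289.

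Btc (betacellulin) was above the 40th percentile on all 9 arrays, between the 40.3rd and 56.6th. Signals were 1221.9, 867.7 and 798.6 in BSN, 1016.6, 1095.9 and 1372.3 in HRG and 875.2, 877.2 and 1045.5 in PTN. The media overlapped in each comparison. Log2 changes were 0.28 in HRG against BSN, 0.31 in HRG against PTN and -0.03 in PTN against BSN, and none passed (limma adjusted p = 0.399, 0.291 and 0.939).

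**Figure D2:**
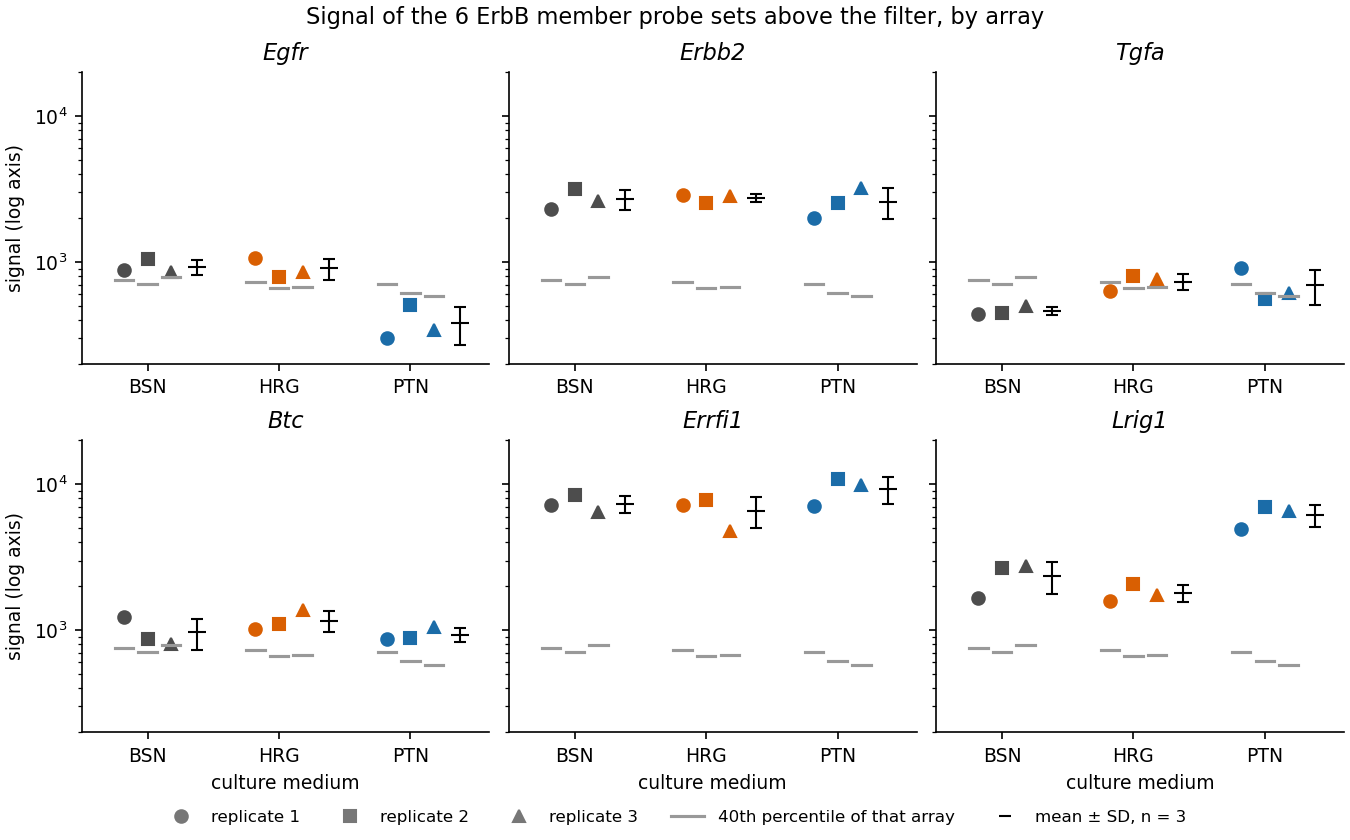
Signal of the 6 kept member probe sets on each array (y axis, log scale), by medium, with shape for the replicate number, a black bar for mean ± SD (n = 3) and a grey bar for the 40th percentile of that array. In PTN, Egfr lies below its grey bars at 298.4 to 508.0 and Lrig1 lies at 4957.1 to 7005.1, above its 6 other arrays.

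Errfi1, the intracellular inhibitor, was the member highest on its arrays, at the 82.7th to 93.3rd percentile. Signals were 7244.8, 8403.1 and 6461.3 in BSN, 7173.1, 7747.3 and 4775.6 in HRG and 7136.6, 10956.3 and 9913.7 in PTN. PTN replicates 2 and 3 were the 2 highest arrays and HRG replicate 3 the lowest, and PTN replicate 1 lay among the others, so the media overlapped. The log2 change in HRG against PTN was -0.51 with an interval of -0.96 to -0.07 (limma adjusted p = 0.083) and did not pass. It passed with the replicate number as a block (limma adjusted p = 0.0497), with array weights (0.00902) and without PTN replicate 1 (0.0157), and over all alternatives its adjusted p was 0.00902 to 0.317. Log2 changes of -0.19 in HRG against BSN and 0.33 in PTN against BSN did not pass (limma adjusted p = 0.607 and 0.268).

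Lrig1, the membrane inhibitor, had the largest change among the 6 kept probe sets. Signals were 1669.7, 2648.1 and 2747.6 in BSN, 1585.2, 2073.4 and 1731.8 in HRG and 4957.1, 7005.1 and 6559.2 in PTN. The lowest PTN array was above the highest of the other 6, and BSN and HRG overlapped. Means were 2355 ± 596 (BSN), 1797 ± 251 (HRG) and 6174 ± 1077 (PTN; SD, n = 3). Lrig1 fell by 1.77 on the log2 scale in HRG against PTN, 3.4-fold (interval -2.2 to -1.33, limma adjusted p = 4.65e-05). It rose by 1.4 in PTN against BSN, 2.64-fold (interval 0.96 to 1.84, limma adjusted p = 0.000585). Larger changes in the same direction were seen for 0.98% of kept probe sets in HRG against PTN and for 0.336% in PTN against BSN. In HRG against BSN the log2 change was -0.36, with an interval of -0.8 to 0.08 (limma adjusted p = 0.274). The calls against PTN held under all 19 alternatives, with changes of -1.92 to -1.67 and of 1.17 to 1.62.

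**Figure D3:**
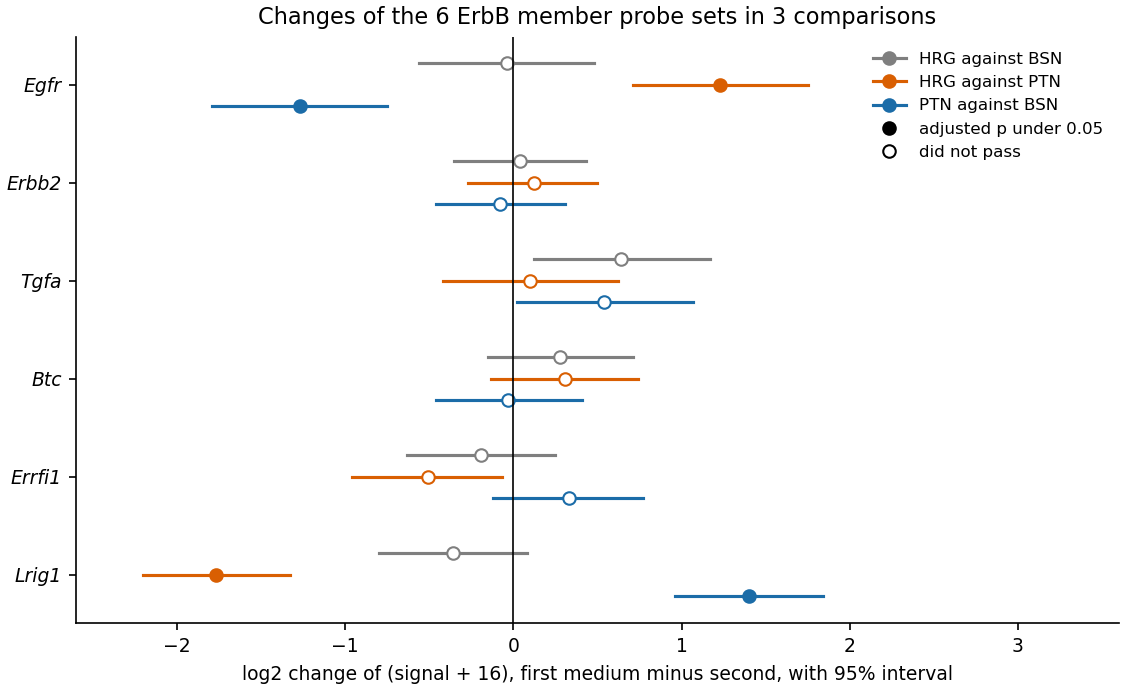
Log2 change of the 6 kept member probe sets (x axis, first medium minus second, on log2(signal + 16)) with 95% intervals from the fit, in the 3 comparisons of media. Filled points passed at an adjusted p under 0.05, and these are Egfr and Lrig1 in the 2 comparisons with PTN, at 1.23 and -1.27 and at -1.77 and 1.4.

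Egfr and Lrig1 moved in opposite directions on the same arrays, and a factor that scales a whole array cancels in their ratio, though quantile normalization would change it. The ratio was chosen after both members were seen to set PTN apart, so it is a description with no test. Lrig1 signal over Egfr signal was 1.91, 2.53 and 3.22 in BSN, 1.48, 2.63 and 2.03 in HRG and 16.61, 13.79 and 19.34 in PTN. All 3 PTN ratios were above all 6 others, which follows from the separation of each of the 2 members on these same arrays. The Egfr signals of the 3 PTN arrays lay below the 40th percentile. The ratio compares arrays and says nothing of which transcript was the more abundant. The 3' to 5' ratio of actin was lower on the 3 PTN arrays than on the 6 others, and its part in these differences was not tested. That of GAPDH, at 2.97 to 6.85 in PTN, 3.75 to 5.83 in BSN and 2.01 to 3.49 in HRG, overlapped between PTN and each other medium. In whole buds, fewer cells with a transcript and less of it in each cell cannot be told apart.

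The gene whose signal followed Egfr most closely over the 9 arrays was Pttg1ip (Pearson's r = 0.979), followed by Irak1 (0.978) and Sqstm1 (0.972), among 8414 kept probe sets with 1 gene. Mean signals of Pttg1ip were 5188 (BSN), 5270 (HRG) and 3925 (PTN), and those of Irak1 were 9412, 9143 and 5842. For Lrig1 the nearest were Ilkap (0.984), Nde1 (0.98) and Cep85 (0.979). Mean signals of Ilkap were 4057, 3615 and 5863, and those of Nde1 were 3382, 3240 and 5465. These correlations describe 9 arrays of 3 media, and the genes were picked as the highest of 8414 probe sets.

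Without the filter on low values, the arrays of 2 media did not overlap for 2 of the 18 member probe sets in HRG against BSN, those of Areg and Tgfa, against 29.9% of all 15866. The number was 4 of 18 in HRG against PTN, for Egfr, Nrg1, Areg and Lrig1, against 31.6%. In PTN against BSN it was 4 of 18, for Egfr, Nrg1, Tgfa and Lrig1, against 31.4%. The members' shares were below that of the array, but counts this small, from comparisons that share arrays, do not set the members apart from it. Several Nrg1 probe sets also share a source sequence, and 12 of the 18 were too dim to be kept.

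The other receptors and ligands of the family added little. Of 6 probe sets for Erbb4, Egf, Ereg, Nrg2 and Muc4, 2 were kept, those of Egf and Ereg, and neither passed in any comparison. Egf was at 496 ± 93.6 in BSN and 730 ± 103 in HRG (SD, n = 3), a log2 change of 0.55 (limma adjusted p = 0.202). The median log2 changes of these 2 were 0.3, 0.29 and 0.01 in the comparisons HRG against BSN, HRG against PTN and PTN against BSN. The medians over all kept probe sets were -0.04, 0.08 and -0.11.

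Genes for the release and presentation of ligands, such as membrane proteases and their inhibitors, had 10 kept probe sets for 9 genes. None passed in HRG against BSN (15.8% of all kept probe sets did, list median log2 change -0.07), and 1 of the 10, for Rhbdf1, had an unadjusted limma p under 0.05. In HRG against PTN 3 were higher and 1 lower (25.8% of all, median 0.28), and in PTN against BSN 1 was higher and 2 lower (22.5% of all, median -0.37). Rhbdf1 was 1 of these 2, lower in PTN by 0.95 on the log2 scale (limma adjusted p = 0.0121). It did not pass without BSN replicate 3 or without PTN replicate 3 (limma adjusted p = 0.0554 and 0.0532). Timp3, an inhibitor of the metalloproteases that cut ErbB ligands free, had means of 2178 ± 501 (BSN), 2619 ± 283 (HRG) and 881 ± 133 (PTN; SD, n = 3) for its probe set 1375138_at. It was lower in PTN than in BSN, 2.42-fold (limma adjusted p = 0.0006), and higher in HRG than in PTN, 2.95-fold (limma adjusted p = 5.99e-05). A second kept Timp3 probe set, 1389836_a_at, did not pass. Furin, a protease that matures such metalloproteases, was higher in HRG than in PTN by 0.54 on the log2 scale (limma adjusted p = 0.00641).

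Adaptors and kinases that carry the receptor signal had 29 kept probe sets for 22 genes. In HRG against BSN 0 were higher and 2 lower (15.8% of all kept probe sets passed, list median -0.09). In HRG against PTN 2 were higher and 1 lower (25.8% of all, median -0.01), and in PTN against BSN 1 was higher and 2 lower (22.5% of all, median -0.09). Stat3, a transcription factor activated by tyrosine kinases, was at 5306 ± 734 (BSN), 3677 ± 628 (HRG) and 2250 ± 53.5 (PTN; SD, n = 3). It fell by 1.22 on the log2 scale in PTN against BSN (limma adjusted p = 0.000251) and was 0.69 higher in HRG than in PTN (limma adjusted p = 0.00573). Its fall of 0.53 in HRG against BSN (limma adjusted p = 0.0341) did not pass without BSN replicate 2 or 3 or HRG replicate 2 or 3, at adjusted p values of 0.0765 to 0.162, nor after median centring (0.0828). Pik3ca, a catalytic subunit of PI3 kinase, had a probe set, 1374232_at, that fell by 1.07 in HRG against BSN (limma adjusted p = 0.00278). This probe set also fell by 0.76 in PTN against BSN (limma adjusted p = 0.0177), but did not pass there after quantile normalization or median centring (0.0662 and 0.0668). In HRG against PTN it changed by -0.31 and did not pass (limma adjusted p = 0.28). The other kept Pik3ca probe set, 1389143_at, changed by -0.12 in HRG against BSN and did not pass (limma adjusted p = 0.761).

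Other negative regulators and proteins of receptor traffic had 19 kept probe sets for 16 genes. In PTN against BSN 8 were lower and 1 higher, where 22.5% of all kept probe sets passed, with a median log2 change of -0.46 against -0.11 over all. After centring arrays on their medians 4 of these 19 passed in that comparison. In HRG against PTN 7 were higher and 1 lower (25.8% of all, median 0.08), and in HRG against BSN 2 were higher and 4 lower (15.8% of all, median -0.06). Cbl, a ubiquitin ligase that marks ErbB receptors for degradation, was at 3716 ± 156 (BSN), 2157 ± 144 (HRG) and 1448 ± 345 (PTN; SD, n = 3) for probe set 1375732_at. It fell by 1.38 in PTN against BSN (limma adjusted p = 0.000204) and by 0.78 in HRG against BSN (limma adjusted p = 0.00698), and its other kept probe set did not pass. Sh3kbp1, which links Cbl to the uptake of receptors, was at 3130 ± 271, 4671 ± 398 and 2261 ± 131 in the same order and was 1.04 higher in HRG than in PTN (limma adjusted p = 9.79e-05). Rasa1, a GTPase-activating protein that turns Ras off, fell by 1.02 in HRG against BSN (limma adjusted p = 0.000128). It also fell by 0.55 in PTN against BSN (limma adjusted p = 0.00762), but did not pass there after median centring (0.0729). In HRG against PTN it was lower by 0.46 (limma adjusted p = 0.0159), but did not pass without HRG replicate 2 or 3 (0.0569 and 0.0523).

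Erbin, a scaffold protein that binds the Erbb2 protein, had 2 kept probe sets that moved in opposite directions in PTN against BSN. Probe set 1375714_at went from 8399 ± 288 in BSN to 3900 ± 713 in PTN (SD, n = 3), a fall of 1.12 on the log2 scale (limma adjusted p = 0.000382). Probe set 1374422_at went from 5320 ± 746 to 9630 ± 1290, a rise of 0.86 (limma adjusted p = 0.0027). The direction for the gene as a whole is therefore not given.

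Genes that ErbB and ERK signalling is known to induce had 24 kept probe sets for 18 genes, and most of those that passed in HRG against BSN were lower in HRG. In HRG against BSN 12 probe sets of 9 genes were lower and 3 of 3 genes higher, where 15.8% of all kept probe sets passed, with a median log2 change of -0.57 against -0.04 over all. After median centring 10 of these 24 passed in that comparison, and after quantile normalization 13. In HRG against PTN 4 probe sets of 4 genes were higher and 5 of 3 genes lower (25.8% of all passed, median -0.22). In PTN against BSN 0 were higher and 5 lower (22.5% of all passed, median -0.25). Dusp6, a phosphatase that turns ERK off, was at 26525 ± 734 (BSN), 12169 ± 957 (HRG) and 25549 ± 4920 (PTN; SD, n = 3) for probe set 1377064_at. It fell by 1.13 in HRG against BSN (limma adjusted p = 0.000136) and by 1.05 against PTN (limma adjusted p = 0.000135). A second Dusp6 probe set, 1387024_at, was also lower in HRG than in BSN, by 1.16 (limma adjusted p = 0.000377). It did not pass in HRG against PTN, at -0.38 (limma adjusted p = 0.113), and was lower in PTN than in BSN, at 8549 ± 1440 against 14761 ± 2250 (limma adjusted p = 0.00505). The third, 1382778_at, did not pass in any comparison. Ccnd1, the cyclin D1 of cell cycle entry, was at 6383 ± 519, 2661 ± 130 and 7791 ± 802 for probe set 1371643_at, and fell by 1.25 in HRG against BSN (limma adjusted p = 3.57e-05). All 3 kept Ccnd1 probe sets were lower in HRG than in BSN and in PTN. They differed in PTN against BSN, where 1371150_at fell by 0.77 (limma adjusted p = 0.00841) and the other two did not pass.

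Members of the same list rose in HRG. Myc, a growth-promoting transcription factor, was at 862 ± 332 (BSN), 2292 ± 337 (HRG) and 744 ± 248 (PTN; SD, n = 3), a rise of 1.45 in HRG against BSN (limma adjusted p = 0.00305) and of 1.64 against PTN (limma adjusted p = 0.000858). Emp1, a membrane protein of epithelia, was at 714 ± 124, 1961 ± 213 and 678 ± 13.5, a rise of 1.45 and 1.5 (limma adjusted p = 0.000136 and 5.99e-05). FGF1 and GDNF, present in all media, also act on ERK, so the list does not read ErbB signalling alone.

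**Figure D4:**
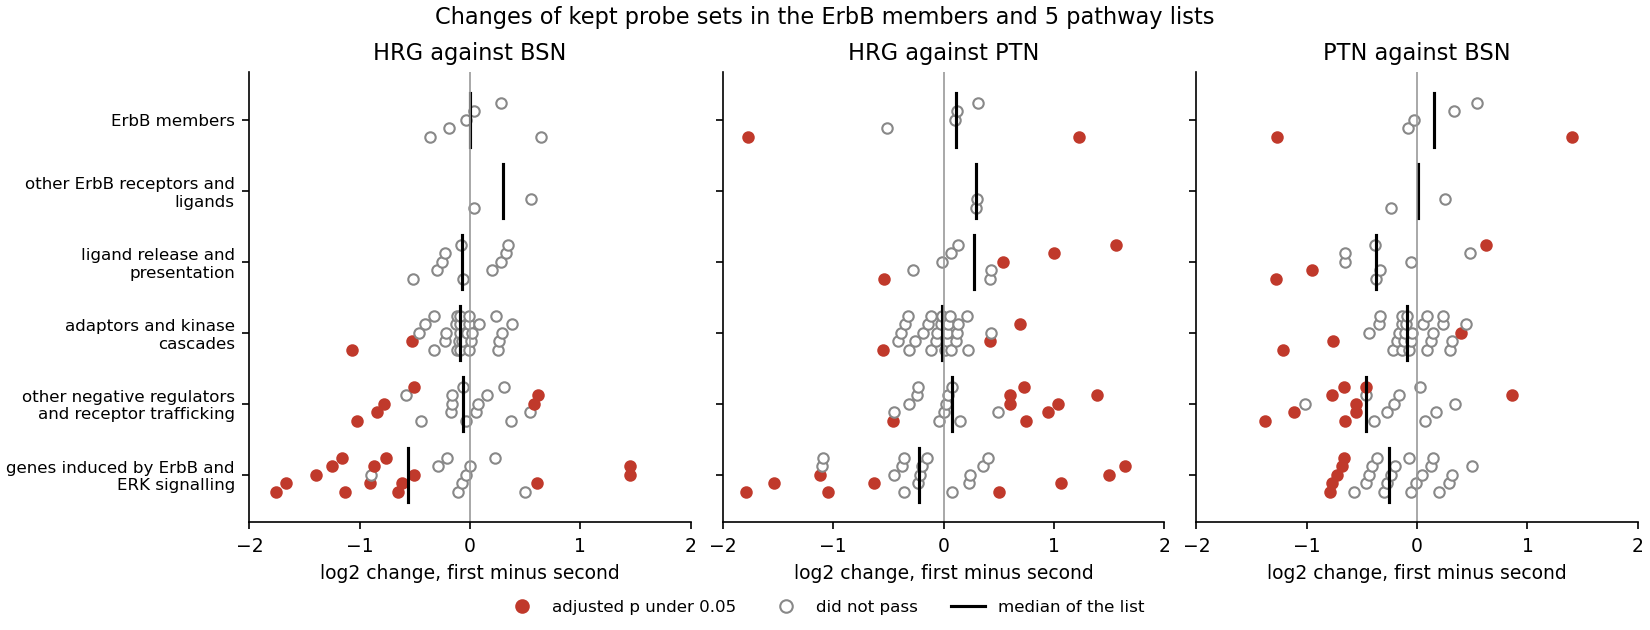
Log2 change (x axis, first medium minus second) of each kept probe set of the ErbB members and of 5 pathway lists in the 3 comparisons, with filled red points for an adjusted p under 0.05 and a black bar for the list's median. The median of genes induced by ErbB and ERK signalling lies at -0.57 in HRG against BSN, and that of other negative regulators at -0.46 in PTN against BSN.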

How the data were processed

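RNA of 9 samples was measured on Affymetrix rat expression arrays. The deposited values are intensities, signals on a linear scale made with GCOS per the submitters' processing notes, with version and settings not given in the sources used here. Trimmed means, without 2% at each end, were 2500.48 to 2500.58, so arrays were not scaled again. The series' design calls the 3 samples of a medium biological replicates.

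Of 15923 probe sets 57 were controls. Gene names came from the platform's table, which gave 12789 probe sets 1 symbol and 312 several, and did not list 2822, which are unnamed here. Signals were transformed as log2(signal + 16), which understates the change of dim probe sets. All 9 arrays were fitted together in limma 3.58.1 (R 4.3.3) with lmFit, contrasts.fit and trended eBayes, which left 6 residual degrees of freedom, 12.7 after moderation. Simulated data on 10106 probe sets, with known changes, gave back 83.6% of log2 changes of 1 and 14.9% of those of 0.5 in HRG against BSN. The shares in HRG against PTN were 88.1% and 20.9%. Changes were planted in HRG only, in 67 probe sets at each of these sizes, far fewer than passed in the real comparisons. The shares therefore need not hold for the real data, and none is given for PTN against BSN.

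The members and the pathway lists were chosen with earlier results of these data known. Every member probe set is named. From each list, up to 2 highest and 2 lowest probe sets by moderated t among those that passed in a comparison could be named, and Egf, the marker genes and further probe sets of a named gene were named after their values were seen. For Egfr and Lrig1 the 3 genes with the highest Pearson's r were named. Deviations of same-numbered HRG and PTN arrays from their group means correlated at 0.118 to 0.332, all over 0.1. The labels state no pairing of these arrays, and the correlations alone do not establish one. The main fit has no block, and the blocked value is given where it changes a member's call. For HRG and BSN the values were -0.0551 to 0.13 and for PTN and BSN -0.097 to -0.0112.

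Alternatives were quantile normalization, centring on the median, pseudocounts of 1 and 64, a filter raised to the 60th percentile or dropped, eBayes untrended, weighted arrays, fits on the compared media alone, the replicate block, each array left out and 1 probe set per gene. Figures were drawn with matplotlib 3.10.9 in Python 3.11.15.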

Additional observations from a re-analysis of the deposited data

How the results depend on the processing

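The Egfr and Lrig1 calls against PTN kept their direction and stayed under an adjusted p of 0.05 under every alternative that tested them, at limma adjusted p values of 0.00126 to 0.0175 for Egfr and 4.33e-06 to 0.00343 for Lrig1. Apart from the fit with no filter, the Egfr alternatives used the filter that only its BSN and HRG arrays had passed. With the filter at the 60th percentile Egfr was not tested, and the members that passed numbered 1 instead of 2 in HRG against PTN and in PTN against BSN. In HRG against BSN 1 member, Tgfa, passed instead of 0 with quantile normalization, median centring, no intensity trend or array weights, and 0 to 1 with 1 array left out. Leaving out 1 array gave 2 to 3 members in HRG against PTN and 2 in PTN against BSN. Array weights raised the calls over all probe sets from 1594 to 2439 in HRG against BSN and from 2276 to 3480 in PTN against BSN. With 1 array left out they were 1053 (without HRG replicate 3) to 2225 and 1358 (without BSN replicate 3) to 3222, and 1882 to 3109 in HRG against PTN. With the replicate block, treating same-numbered arrays as paired, 3 members passed in HRG against PTN, Errfi1 added, and the counts over all probe sets were 1641, 2690 and 2362. The block changed no other member's call. At the 60th percentile as the level, 2 member probe sets lay above it on all 9 arrays, against 4 at the 40th. Median centring gave 1 instead of 2 passing adaptor probe sets in HRG against BSN, 5 instead of 3 in PTN against BSN, and 4 instead of 9 among other negative regulators there. Among genes induced by ErbB and ERK signalling it gave 10 instead of 15 in HRG against BSN. Of 1191 alternative values for the other genes that could be named, 1112 kept their side of the threshold, 62 no longer passed, 17 newly passed and none reversed. Dim signals limit what can be said of Erbb3, Nrg1, Areg and Hbegf.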
